A study of Mus musculus with 16 samples.

Results

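The cells described here were 178 mouse bone marrow cells, 120 from LARRY main mouse 3 and 58 from LARRY main mouse 4, chosen by 3 antibody tags. They came from 4017 cells that carried at least 100 tag molecules (unique molecular identifiers, UMI), of 8863 cells in these 2 libraries and 95930 cells in 16 libraries of the whole study. The natural logarithm of each tag's UMI count plus 1 was centred on the cell's mean over all tags. Within each library a cell was taken when it lay in the top 50% for c-Kit (CD117), the top 25% for CD16/32 and the bottom 50% for Sca-1. The chosen cells, called gated cells below, made up 4.49% of the cells with at least 100 UMI in mouse 3 and 4.32% in mouse 4. The remaining cells with at least 100 UMI, 2555 in mouse 3 and 1284 in mouse 4, are called other cells. Within the 725 and 358 c-Kit-high, Sca-1-low cells, the gated cells were 16.6% in mouse 3 and 16.2% in mouse 4.

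c-Kit is the receptor for stem cell factor and is carried by stem and progenitor cells of the marrow. Sca-1 marks mouse stem and early multipotent cells and is low on committed myeloid progenitors. CD16/32, a pair of receptors for the Fc part of IgG, is high on granulocyte-monocyte progenitors, lower on common myeloid progenitors and lowest on megakaryocyte-erythroid progenitors. During commitment of blood progenitors, DNA methylation is lost at many regulatory sites of the chosen lineage and gained at others.

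Methylation was read by scTAM-seq, run on the Tapestri droplet platform of Mission Bio. A restriction enzyme cuts unmethylated sites in each cell before a fixed panel of 663 amplicons is amplified, so a read in a cell stands for a methylated site. The call for methylation was 1 read or more, and the measure below is the share of cells with a read. A missing read can also be an amplicon that failed to amplify. The amplicons are given by panel identifiers, which the files used here do not tie to genes or positions.

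LARRY is a library of heritable barcodes used for lineage tracing. LARRY main mice 3 and 4 supplied the gated and the other cells, and LARRY replicate mouse 1 and a native marrow library supplied cells for a comparison in libraries that the choice did not use. All are labelled as bone marrow immune cells. The sources used here do not state strain, age, sorting or how the barcodes were introduced. Each library is 1 mouse, so 2 libraries are 2 replicates, and cells of a library are not replicates.

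The gated cells were not cells with many CD16/32 molecules. In mouse 3, 28 of the 120 gated cells had 1 CD16/32 UMI, 49 had 2 and 43 had at least 3, with a maximum of 13. In mouse 4, 5 of the 58 had 1, 14 had 2 and 39 had at least 3, with a maximum of 37. Cells without any CD16/32 UMI made up 40.2% of other cells in mouse 3 and 30.6% in mouse 4. The median share of a cell's tag UMIs that were CD16/32 was 1.35% in gated cells and 0.325% in other cells of mouse 3, and 1.67% in gated cells and 0.526% in other cells of mouse 4. Among tag UMIs on barcodes that were not cells, CD16/32 made up 3.23% in mouse 3 and 3.32% in mouse 4, above the gated cells. The name "CD16/32 high" therefore holds for the rank within a library, and an amount of CD16/32 above this background is not shown. A share below that of such barcodes was not particular to CD16/32. Pooled over gated cells of mouse 3, CD34 made up 2.36%, against 8.71% on those barcodes. Only c-Kit, CD48, CD49f and CD27 had higher pooled shares in gated cells in both mice. Shares thus cannot settle whether the amount of CD16/32 lay above background. The cells with the most CD16/32 lay elsewhere. With 20 or more CD16/32 UMIs there were 156 cells in mouse 3, 0 of them gated, and 62 in mouse 4, 1 of them gated. These cells had a higher median UMI count than the rest for 19 of the 20 tags in both libraries, and other cells reached 2160 and 2011 CD16/32 UMIs.

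At the CD16/32 threshold the last gated cell of mouse 3 held 2 CD16/32 UMIs of 237 tag UMIs, and the nearest c-Kit-high, Sca-1-low cell outside it held 1 of 152. In mouse 4 these were 4 of 293 and 3 of 315. Neighbouring cells across the threshold thus differed by 1 molecule.

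The other tags describe the gated cells, and no test is given for tags because the gate was made from them. The median c-Kit count was 23 UMI in gated cells and 18 in other cells of mouse 3, and 25 in gated cells and 16 in other cells of mouse 4. The median Sca-1 count was 0 in gated and 2 in other cells of mouse 3, and 1 in gated and 3 in other cells of mouse 4. CD34, carried by early myeloid progenitors, had the same median in gated and other cells, 3 UMI in mouse 3 and 5 UMI in mouse 4. Several tags outside the gate had lower counts in gated cells, which also had fewer tag UMIs in all. Every tag entered the cell mean used for centring, so low counts of these tags are not independent of the gate. The major histocompatibility class II protein I-A/I-E, carried by dendritic and B cells, had a median of 5.5 UMI in gated and 17 in other cells of mouse 3, and 5.5 in gated and 14 in other cells of mouse 4. CD9 and CD61, which are strong on megakaryocytic cells, had medians of 3.5 and 2 UMI in gated cells against 7 and 4 UMI in other cells of mouse 3, and 6 and 4 in gated cells against 11 and 6 in other cells of mouse 4. CD41, a further megakaryocytic tag, did not share this fall in mouse 3, with a median of 2 UMI in gated and other cells. In mouse 4 its median was 2 in gated and 3 in other cells. CD27, which early and multipotent progenitors carry and megakaryocyte-erythroid progenitors lose, had a median of 5 UMI in gated and 12 in other cells of mouse 3, and 2 in gated and 7 in other cells of mouse 4. Among further tags of stem and multipotent cells, CD135 and ESAM were lower in gated cells of both mice on the centred scale. CD150 and CD201 were higher, by 0.0490 and 0.0615 in mouse 3 and by 0.139 and 0.0413 in mouse 4. Ter-119, a protein of red cell precursors, had the same median in gated and other cells, 1 UMI in mouse 3 and 2 in mouse 4. On the centred scale Ter-119 was higher in gated cells, by 0.214 in mouse 3 and 0.254 in mouse 4, and 89.7% of gated and 74.8% of other cells of mouse 4 carried it.

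**Figure D1:**
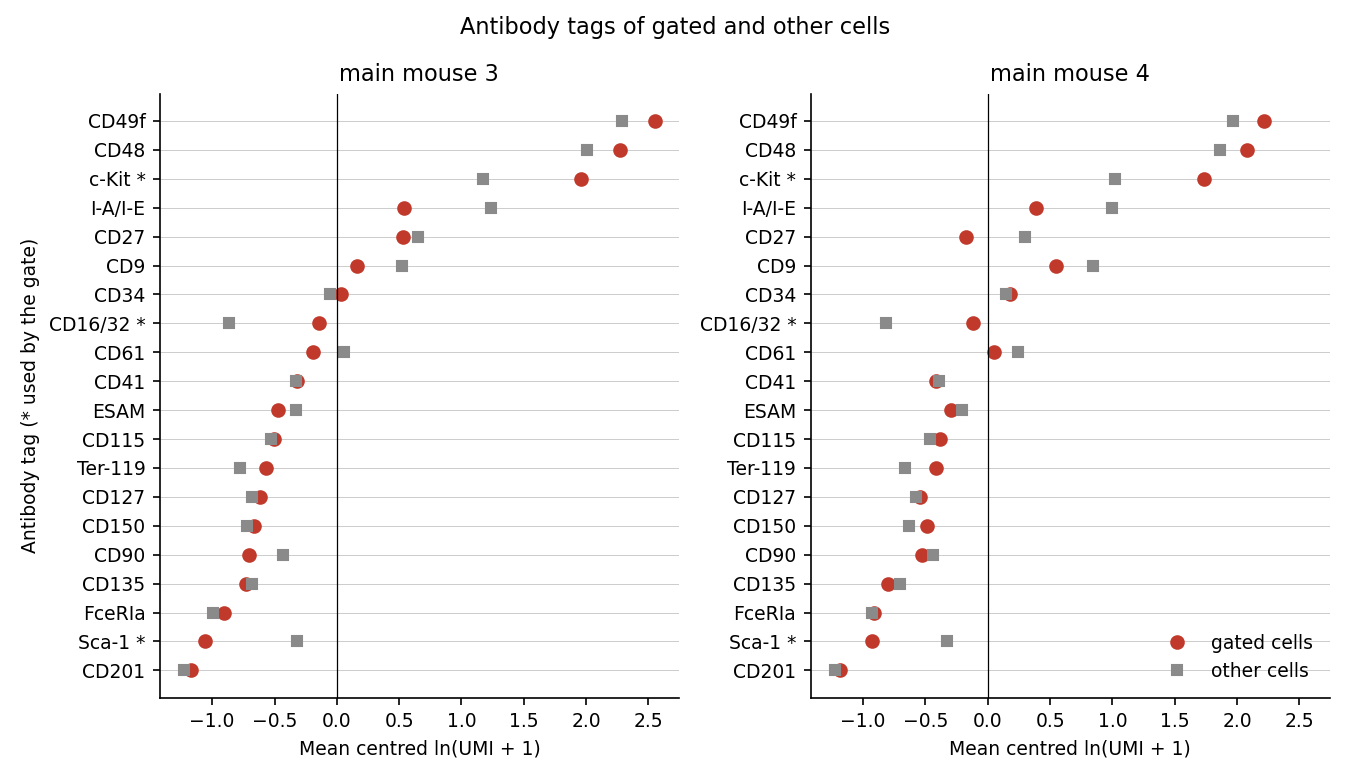
Mean centred ln(UMI + 1) of each of 20 antibody tags (horizontal axis) in gated cells (red circles) and other cells (grey squares), one panel per library. Asterisks mark the 3 tags of the gate; I-A/I-E and CD27 lie further left in gated cells in both libraries.

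The gated cells were read less deeply. Their median was 40708 reads against 46165 in other cells of mouse 3, and 27618.5 against 36495.5 in mouse 4. Their median tag count was 143 UMI against 219 UMI in other cells of mouse 3, and 165.5 against 214 in mouse 4. This low tag count went with the centring: the same gate on uncentred tags took cells with a median of 239 UMI against 212 in the rest of mouse 3, and 270 against 209.5 in the rest of mouse 4. The median number of amplicons with a read was 376.5 in gated and 408 in other cells of mouse 3, and 391.5 in gated and 408 in other cells of mouse 4. The 77 constitutive amplicons, present in 90% or more of the cells in each of the 16 libraries, were detected at a mean of 96.4% in gated and 97.3% in other cells of mouse 3, and at 97.2% in gated and 97.1% in other cells of mouse 4. The part of depth in the differences below was not tested apart from the matched, adjusted and thinned values given beside them. The libraries shared 5 cell barcodes, none of them of a gated cell in both.

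Against other cells of the same library, the gated cells had a read less often at a set of mostly intermediate amplicons and more often at none that passed the test. At an adjusted p under 0.05, 27 of 600 amplicons tested passed (4.5%), 27 lower and 0 higher, by edgeR's quasi-likelihood test on cell numbers, read present or absent, with library as a block. All 27 were lower in both mice. Their mean difference over the libraries had a median of -20.2 percentage points and ran from -26.7 to -9.74, against a median of -2.23 over all 600. The median log2 odds ratio over all 600 was -0.29, and 468 of them (78%) were negative. Of the 27, 25 were intermediate amplicons, methylated on average in 25 to 90% of bone marrow cells, as were 67.2% of those tested. At an unadjusted p under 0.05 there were 104 lower and 4 higher amplicons.

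The amplicon with the largest fall in log2 odds, AMPL388659, had a read in 69.2% of gated cells (exact 95% interval 60.1 to 77.3) against 91.9% of other cells in mouse 3, and in 65.5% (51.9 to 77.5) against 89.9% in mouse 4. Its log2 odds ratio was -2.29 (SE 0.271, edgeR adjusted p = 0.00594). AMPL388246 had a read in 59.2% of gated cells (49.8 to 68.0) against 87.4% of other cells in mouse 3, and in 60.3% (46.6 to 73.0) against 85.6% in mouse 4. Its log2 odds ratio was -2.15 (SE 0.257, edgeR adjusted p = 0.00594), and its mean difference of -26.7 points was the largest of the 27 in points. The levels in gated cells of both mice were alike, and the intervals of gated cells stayed below the share in other cells for both amplicons. Both were chosen as the largest falls in these cells, so the place of the intervals is not free of that choice. The intervals cover the counting of cells within a mouse only.

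AMPL376551 had a read in 64.2% of gated and 88.7% of other cells in mouse 3, and in 65.5% of gated and 86.3% of other cells in mouse 4, a log2 odds ratio of -1.98. AMPL365903 had a read in 65.0% of gated and 89.1% of other cells in mouse 3, and in 67.2% of gated and 86.2% of other cells in mouse 4, a log2 odds ratio of -1.94. AMPL388354 had a read in 65.8% of gated and 85.9% of other cells in mouse 3, and in 62.1% of gated and 88.2% of other cells in mouse 4, a log2 odds ratio of -1.86. These 3 amplicons lay at about the same level in gated cells of both mice. AMPL388186 was 1 of the 77 constitutive amplicons, and the only 1 of them among the 27. Its mean difference of -9.74 was the smallest of the 27 in points. In mouse 3 it had a read in 90% of gated and 97.0% of other cells. In mouse 4 these were 82.8% and 95.2%. Whether its missing reads were unmethylated sites or failed amplification was not tested. The edgeR adjusted p-values of these 4 ran from 0.00744 to 0.0282. On summed reads in place of cells, AMPL388186 reversed, with a log2 ratio of 0.086 by DESeq2.

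**Figure D2:**
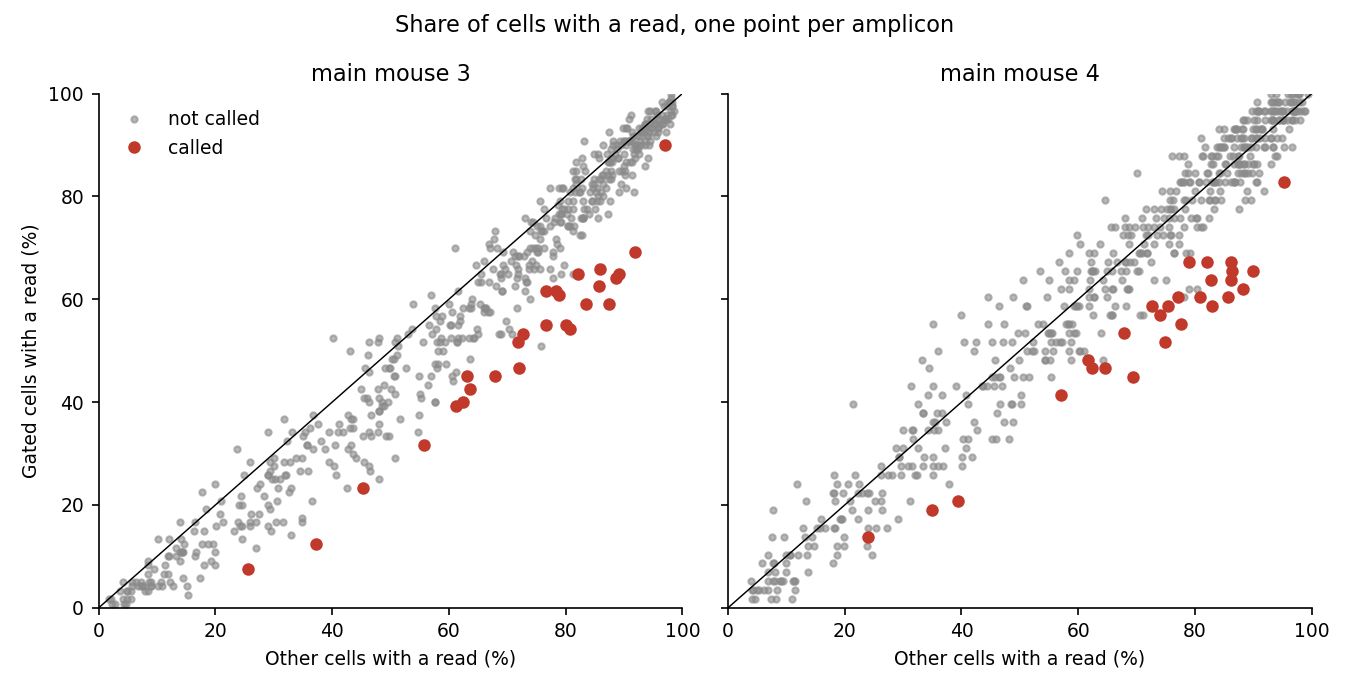
Share of gated cells with a read (vertical axis, %) against the share of other cells (horizontal axis, %), one point for each of 600 amplicons and one panel per library; the line marks equal shares. Red points are the 27 amplicons that passed the edgeR test, all below the line in both panels.

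The share of cells with a read also moved with the number of tag UMIs, and at the 27 amplicons the gated cells lay below each such class. For the 27 amplicons the median share in mouse 3 was 54.2% in gated cells, 75.2% in other cells with at least 200 tag UMIs, 73.0% in those with fewer, and 66.6% in the 2803 cells with under 100. In mouse 4 it was 57.8% in gated cells, 77.2% in other cells with at least 200 tag UMIs, 72.6% in those with fewer, and 66.3% in the 2043 cells with under 100. Over all 600 amplicons the median was 61.7% in gated cells and 65.1 to 69.3% in the other classes of mouse 3, and 65.5% in gated cells and 65.2 to 71.0% in the other classes of mouse 4. The 27 were chosen as lower in gated cells, so only the order among the other classes is free of that choice.

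The call was lost under several alternatives, and the size depended on whether cells or reads were counted. When other cells were matched to gated cells on reads and tag UMIs, the 27 amplicons were all still lower, with a median log2 odds ratio of -1.15 against -1.40 unmatched, while 0 passed the edgeR test and 58 had an unadjusted p under 0.05. With reads thinned to 16000 per cell, 36 amplicons passed and the median of the 27 was -1.31. That left out 5% of gated and 1.84% of other cells in mouse 3, and 15.5% of gated and 9.81% of other cells in mouse 4. A logistic fit with reads and tag UMIs as covariates gave 22 calls and a median of -1.15. With a minimum of 200 tag UMIs 0 passed and 74 had an unadjusted p under 0.05, and with limma on log odds 0 passed and 87 had an unadjusted p under 0.05. Without the cells with 20 or more CD16/32 UMIs 10 passed, and the median of the 27 was -1.34. With the gate set on uncentred tags the median was -1.01. On summed reads in place of cells the median log2 ratio of the 27 was only -0.47 by DESeq2 and -0.50 by edgeR with TMM, and 24 of the 27 were lower.

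Cells that passed the c-Kit and Sca-1 gates but missed the CD16/32 gate lay between at the 2 amplicons with the largest log2 odds ratios. AMPL388246 had a read in 82.0% of these other c-Kit-high, Sca-1-low cells in mouse 3 and in 80% in mouse 4, above the gated cells and below other cells as a whole. AMPL388659 had a read in 88.8% of them in mouse 3 and in 86.0% in mouse 4. AMPL365895, also among the 27, did not follow this order in mouse 4, with 67.2% of gated, 62.7% of these cells and 79.0% of other cells.

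Set against these c-Kit-high, Sca-1-low cells outside the CD16/32 gate, the gated cells had a read less often at 24 amplicons and more often at 2, of 595 tested (4.37% called in all, 4.03% lower and 0.336% higher). AMPL388659, AMPL365903 and AMPL388246 led the lower ones, with log2 odds ratios of -1.77, -1.71 and -1.56 (edgeR adjusted p = 1.83e-06, 1.83e-06 and 3.26e-06). AMPL371238 followed with 85.8% of gated and 94.9% of the other c-Kit-high, Sca-1-low cells in mouse 3, and 81.0% of gated and 92.3% of them in mouse 4. Its log2 odds ratio was -1.56 (edgeR adjusted p = 0.00429), and it reversed to 0.126 on summed reads by DESeq2.

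The 2 amplicons that were higher in gated cells were AMPL365938 and AMPL371357. AMPL365938 had a read in 52.5% of gated cells (exact 95% interval 43.2 to 61.7) against 35.7% of the other c-Kit-high, Sca-1-low cells in mouse 3, and in 56.9% (43.2 to 69.8) against 36.3% in mouse 4. Its log2 odds ratio was 1.07 (SE 0.254, edgeR adjusted p = 0.00264). AMPL371357 had a read in 13.3% of gated cells (7.82 to 20.7) against 6.94% in mouse 3, and in 13.8% (6.15 to 25.4) against 4.00% in mouse 4. Its log2 odds ratio was 1.30 (SE 0.407, edgeR adjusted p = 0.0425). In all other cells the share at AMPL371357 was 11.98% in mouse 3 and 9.58% in mouse 4, nearer to the gated cells. In the same CD16/32 class, c-Kit-low, Sca-1-high cells were higher than gated cells, with 25.22% in mouse 3 and 23.02% in mouse 4. The c-Kit-high, Sca-1-high cells of that class were lower, with 3.28% in mouse 3 and 3.70% in mouse 4. Its c-Kit-low, Sca-1-low cells were above gated cells in mouse 3 and below them in mouse 4.

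These calls rest on an estimate of the spread from 1 residual degree of freedom per amplicon. Without the 1 gated cell of mouse 4 that held 20 or more CD16/32 UMIs, 0 amplicons were called and 73 had an unadjusted p under 0.05. The log2 odds ratio of AMPL388659 was then -1.74 in place of -1.77, while the prior degrees of freedom that edgeR gave to the shared spread dropped to 4.24, having had no upper bound. Matching on reads and tag UMIs also gave 0 calls, and the log2 odds ratio of AMPL388659 was then -1.13. The median of the 24 lower amplicons was -1.06, -0.84 when matched, and -0.41 with the gate set on uncentred tags, where 23 of them stayed lower. On summed reads by DESeq2 the median was -0.32 and 18 of the 24 were lower. With the median difference over all 595 amplicons, -0.23 on the log2 scale, set to 0, 8 were higher and 8 lower. Both the count and the size of these differences thus depended on the processing.

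Within the c-Kit-high, Sca-1-low cells, the shares were next followed over 4 classes of CD16/32, each cut at 25% steps of the library's cells, of which class 4 is the gated cells. The classes held 194, 206, 205 and 120 cells in mouse 3 and 102, 101, 97 and 58 cells in mouse 4. By the edgeR test on the class number, 20 of 593 amplicons passed (3.37%), 18 lower (3.04%) and 2 higher (0.337%) with rising CD16/32. The median of their log2 odds changes per class was -0.41, against -0.09 over all 593. The 4 classes of a library come from the same mouse. The p-values of this test thus rest largely on the spread between classes of cells within 2 mice.

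AMPL388659 had a read in 94.8%, 85.4%, 86.3% and 69.2% of cells over classes 1 to 4 in mouse 3, and in 87.3%, 92.1%, 78.4% and 65.5% in mouse 4. Its log2 odds changed by -0.80 per class (SE 0.126, edgeR adjusted p = 1.33e-07). AMPL388246 had a read in 85.6%, 81.1%, 79.5% and 59.2% in mouse 3, and in 80.4%, 85.1%, 74.2% and 60.3% in mouse 4, a change of -0.58 per class (edgeR adjusted p = 2.66e-05). In both libraries class 4, the gated cells, was the lowest for these amplicons, and in mouse 3 the widest step lay between classes 3 and 4. The amplicons named here and below were chosen by the test over these classes, so the place of class 4 is not free of that choice.

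AMPL365938 ran the other way, with 32.5%, 33.0%, 41.5% and 52.5% over classes 1 to 4 in mouse 3, and 30.4%, 38.6%, 40.2% and 56.9% in mouse 4. Its log2 odds changed by 0.42 per class (SE 0.0972, edgeR adjusted p = 0.00135). AMPL388409 had a read in 21.1%, 20.4%, 25.4% and 30.8% in mouse 3, and in 16.7%, 25.7%, 29.9% and 39.7% in mouse 4, a change of 0.36 per class (edgeR adjusted p = 0.0274). Among these 4 classes both amplicons were highest in the gated cells of both mice. Outside the c-Kit-high, Sca-1-low cells, c-Kit-low, Sca-1-high cells in the same CD16/32 class were higher at AMPL365938, with 58.8% in mouse 3 and 61.9% in mouse 4. At AMPL388409 those cells had 42.0% in mouse 3 and 38.1% in mouse 4.

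**Figure D3:**
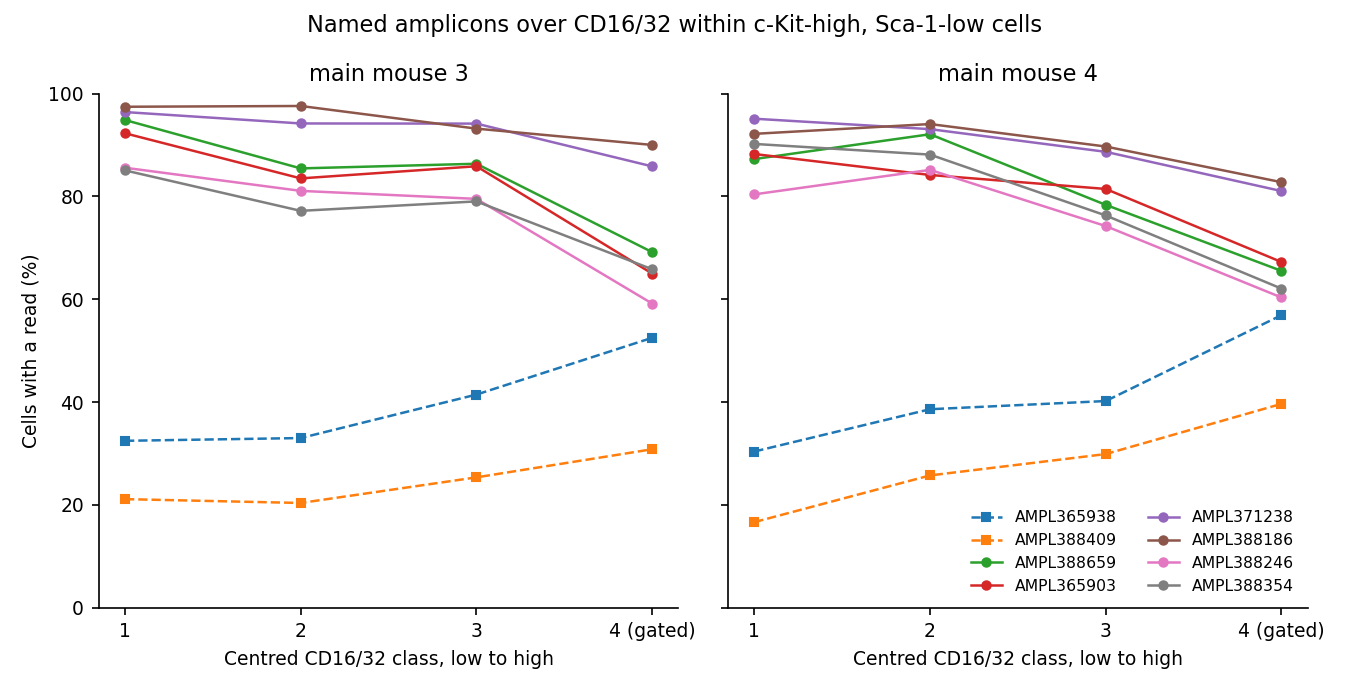
Share of c-Kit-high, Sca-1-low cells with a read (vertical axis, %) over 4 classes of centred CD16/32 from low to high (horizontal axis), one panel per library; class 4 is the gated cells. The 6 solid lines are amplicons that fell and end lowest in class 4, and the dashed lines are AMPL365938 and AMPL388409, which end highest there. The amplicons were chosen by the test over these classes, so the place of class 4 is not free of that choice.

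Depth moved along the same classes. The median tag count was 283.5, 165, 205 and 143 UMI over classes 1 to 4 in mouse 3, and 242.5, 214, 214 and 165.5 in mouse 4. With the upper or lower 50% of tag UMIs as a covariate, 8 amplicons passed, and AMPL388659 changed by -0.69 per class. Without mouse 3 the median change of the 18 lower amplicons was -0.50 per class, and without mouse 4 it was -0.47. All 18 stayed lower in each. With 1 mouse left there is no spread between mice, so no count of calls is given. With the median change over all amplicons set to 0, 7 were lower and 3 higher.

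The gated cells were not uniform, and at most of the named amplicons their shares differed by CD27, which the gate did not use. Each library's c-Kit-high, Sca-1-low cells were split at their median of centred CD27, a split chosen after its values were seen. Of the gated cells, 82 of 120 in mouse 3 and 44 of 58 in mouse 4 fell in the CD27-low part, 68.3% and 75.9%. Of the other c-Kit-high, Sca-1-low cells, 46.4% fell there in mouse 3 and 45% in mouse 4.

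AMPL388246 had a read in 43.9% of CD27-low (exact 95% interval 33.0 to 55.3) and 92.1% of CD27-high gated cells (78.6 to 98.3) in mouse 3, and in 47.7% of CD27-low (32.5 to 63.3) and 100% of the 14 CD27-high gated cells (76.8 to 100) in mouse 4. AMPL376551 had a read in 51.2% of CD27-low and 92.1% of CD27-high gated cells in mouse 3, and in 54.5% of CD27-low and 100% of CD27-high gated cells in mouse 4. AMPL365938, higher in gated cells, had a read in 65.9% of CD27-low and 23.7% of CD27-high gated cells in mouse 3, and in 65.9% of CD27-low and 28.6% of CD27-high gated cells in mouse 4. AMPL365903 was an exception in mouse 4, with 65.9% of CD27-low (50.1 to 79.5) and 71.4% of CD27-high gated cells (41.9 to 91.6), while in mouse 3 it had 52.4% of CD27-low and 92.1% of CD27-high gated cells. For AMPL388246 and AMPL376551 the intervals of CD27-low and CD27-high gated cells did not overlap in mouse 3 or mouse 4. For AMPL365938 they did not overlap in mouse 3 but did in mouse 4. There they were 50.1 to 79.5 in CD27-low and 8.39 to 58.1 in CD27-high gated cells. The intervals cover the counting of cells within a mouse only and are no test of the split. The split was chosen after its values were seen, and the amplicons by tests on these same cells. The place of the intervals is not free of these choices.

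The same split ran through the cells outside the CD16/32 gate. There AMPL388246 had a read in 66.5% of CD27-low and 95.4% of CD27-high cells in mouse 3, and in 64.4% of CD27-low and 92.7% of CD27-high cells in mouse 4. Over the 27 amplicons, the median share in CD27-low cells was 42.7% in gated and 56.8% in other c-Kit-high, Sca-1-low cells of mouse 3, and 47.7% in gated and 60% in the others of mouse 4. In CD27-high cells it was 76.3% in gated and 77.0% in other c-Kit-high, Sca-1-low cells of mouse 3, and 85.7% in gated and 75.8% in the others of mouse 4. The 27 were chosen as lower in these gated cells, so the order of gated and other cells is not free of that choice. Over all 600 amplicons the medians in gated cells were 58.5% in CD27-low and 63.2% in CD27-high cells of mouse 3, and 65.9% in CD27-low and 71.4% in CD27-high cells of mouse 4. Median reads were 39562.5 in CD27-low and 41936.5 in CD27-high gated cells of mouse 3, and 26386.5 in CD27-low and 46468 in CD27-high gated cells of mouse 4. Median tag counts were 135.5 UMI in CD27-low and 190 in CD27-high gated cells of mouse 3, and 142.5 and 248.5 in mouse 4. The part of depth in the CD27 values was not tested, and whether the CD27 difference itself differs between gated and other cells was not tested.

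**Figure D4:**
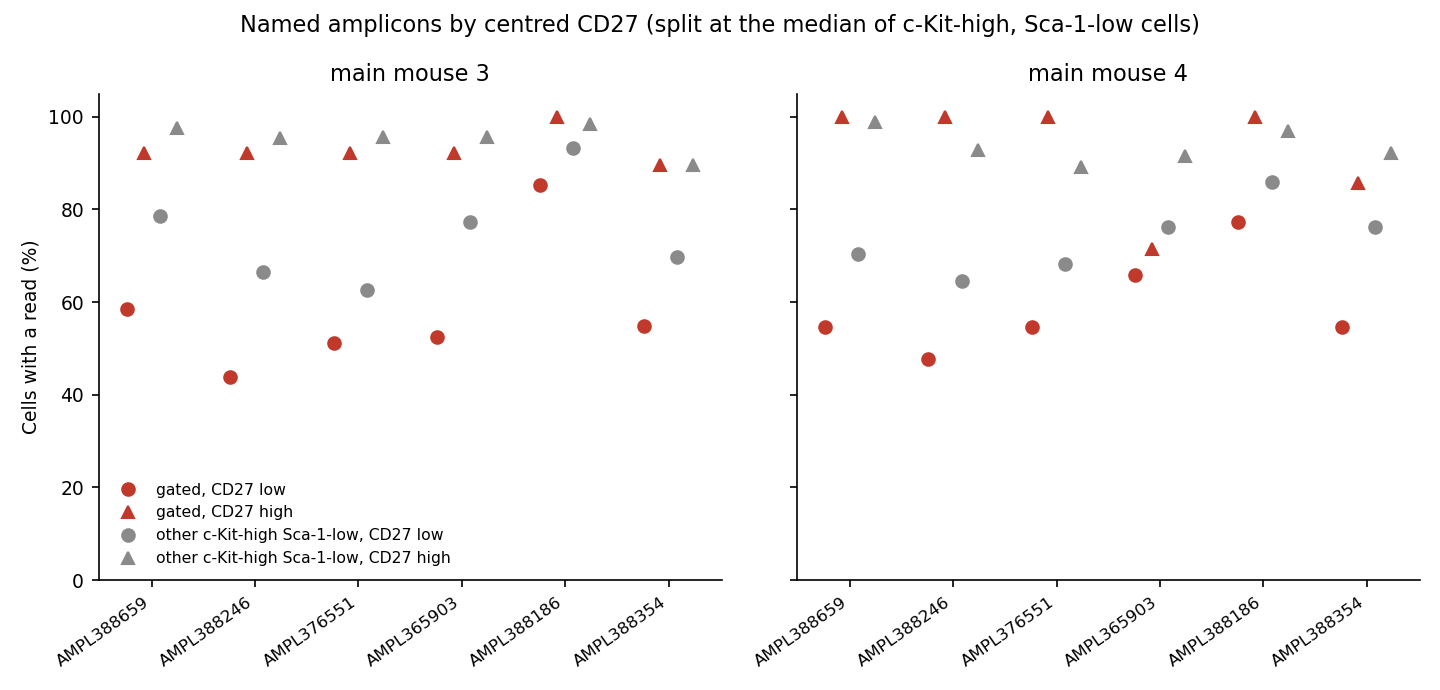
Share of cells with a read (vertical axis, %) at the 6 amplicons with the largest falls in log2 odds (horizontal axis), one panel per library. Red marks gated cells and grey other c-Kit-high, Sca-1-low cells; circles are CD27-low and triangles CD27-high cells, and the red circles are the lowest mark at each amplicon. The amplicons were chosen as lower in gated cells, so the order of red and grey marks is not free of that choice.

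I-A/I-E, split in the same way, gave smaller differences among gated cells. Over the 27 amplicons the median share in gated cells was 54.9% in I-A/I-E-low and 52.6% in I-A/I-E-high cells of mouse 3, and 56.4% in I-A/I-E-low and 63.2% in I-A/I-E-high cells of mouse 4. The direction was not shared by the mice.

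CD34 divides common myeloid and granulocyte-monocyte progenitors, which carry it, from megakaryocyte-erythroid progenitors, which do not. CD34-high gated cells were tested against CD34-low gated cells, split at each library's median. By the edgeR test 0 of 598 amplicons passed (0%), and 8 had an unadjusted p under 0.05. In simulated data of this size, none of 589 amplicons passed, changed ones included, so a difference of the simulated sizes could not have been found. The amplicons of smallest p were AMPL388311 and AMPL388787, lower in CD34-high cells, and AMPL377174 and AMPL388335, higher. AMPL388311 had a read in 8.33% of CD34-high and 25% of CD34-low gated cells in mouse 3, and in 17.2% of CD34-high and 48.3% of CD34-low gated cells in mouse 4 (edgeR adjusted p = 1). It had few reads, a mean of 0.633 per gated cell in mouse 3 and 3.97 in mouse 4. CD34-high gated cells were also read less deeply. Their median was 37375 reads against 43274.5 in CD34-low gated cells of mouse 3, and 26272 against 40739 in mouse 4.

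Taken over each cell's intermediate amplicons, the gated cells had a lower mean share with a read in both mice, by very different amounts. The mean was 57.7% ± 9.62 (SD over 120 cells) in gated and 64.1% ± 11.3 in other cells of mouse 3, and 63.6% ± 13.2 (SD over 58 cells) in gated and 65.0% ± 12.1 in other cells of mouse 4. The differences were -6.34 percentage points in mouse 3 and -1.40 in mouse 4, and the cell distributions overlapped over most of their range. With thinned reads they were -5.41 in mouse 3 and 0.341 in mouse 4, and with matched other cells -4.66 in mouse 3 and 1.48 in mouse 4, so mouse 4 then lay above 0. With the gate on uncentred tags they were -2.47 in mouse 3 and -2.73 in mouse 4. No test is given, since 2 libraries allow no exact p below 0.5.

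The gated cells were also more often each other's neighbours in methylation. Among the 20 nearest cells in 20 principal components, after regression on depth, 9.58% of a gated cell's neighbours were gated in mouse 3, where gated cells are 4.49% of cells, and 8.88% were gated in mouse 4, where they are 4.32%. The other c-Kit-high, Sca-1-low cells made up 31.3% of their own neighbours at 22.6% of cells in mouse 3, and 32.7% at 22.4% in mouse 4. Most neighbours of a gated cell were thus outside the gate in both mice.

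The tag tables of LARRY replicate mouse 1 and of the native library list no CD16/32, so gated cells could not be chosen there. The c-Kit and Sca-1 parts of the gate could, and these libraries took no part in choosing the cells or the amplicons. In them 0 of 560 amplicons passed the edgeR test of c-Kit-high, Sca-1-low cells against other cells (0%), and 75 had an unadjusted p under 0.05. With a call of at least 5 reads, 39 passed. In main mice 3 and 4 the same gate gave 140 of 602 (23.3%), 130 lower (21.6%) and 10 higher (1.66%). All 27 amplicons called in gated against other cells were among these 140. That list is thus not particular to the CD16/32 gate, and the gated cells are part of both comparisons. A test of the difference between these effects called 0 of 590 amplicons (0%), with 19 at an unadjusted p under 0.05.

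Of the 27 amplicons lower in gated cells, 25 (92.6%) were lower in c-Kit-high, Sca-1-low cells of both replicate mouse 1 and the native library, against 31.5% of the 552 amplicons of that comparison that could be followed. Their median log2 odds ratio was -0.75 against -0.01, and 19 of the 27 had an unadjusted p under 0.05 in that direction, 70.4% against 11.2%. AMPL388246 had a read in 78.0% of c-Kit-high, Sca-1-low and 89.4% of other cells in replicate mouse 1, and in 86.7% of c-Kit-high, Sca-1-low and 93.9% of other cells in the native library. Its log2 odds ratio was -1.24 (SE 0.173, edgeR adjusted p = 0.219). AMPL365903 was an exception, with 88.2% of c-Kit-high, Sca-1-low and 87.2% of other cells in replicate mouse 1, and 93.6% of c-Kit-high, Sca-1-low and 95.1% of other cells in the native library. These values bear on the c-Kit and Sca-1 gates and not on CD16/32.

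**Figure D5:**
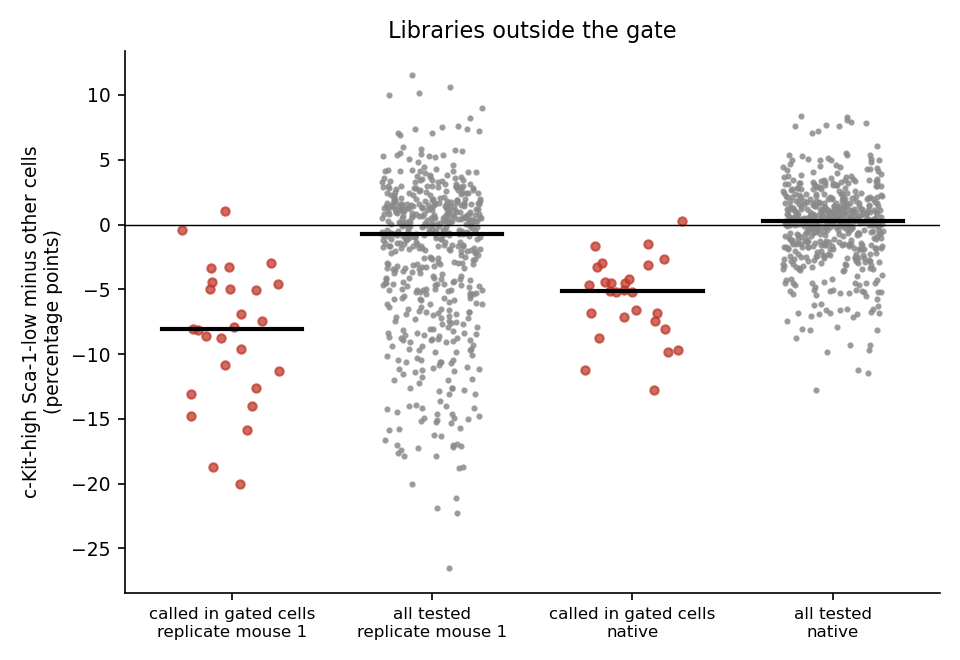
Difference in the share of cells with a read, c-Kit-high, Sca-1-low minus other cells (vertical axis, percentage points), in replicate mouse 1 and the native library. Red points are the 27 amplicons lower in gated cells, grey points all amplicons tested in both comparisons, and bars are medians, -8.04 and -5.15 for the red and -0.750 and 0.297 for the grey points.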

How the data were processed

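The authors deposited, per the labels' protocols, tables of read counts per amplicon and cell from scTAM-seq, and tables of tag UMI counts per cell; neither count is normalized. The submitters' processing notes name mm10 as the build. Aligner, cell calling and filters are not stated in the sources used here, and doublets were not called. The gated cells, amplicon lists and tests were chosen with earlier results of these data known. Cells with at least 100 tag UMIs were gated as described. Cells were counted per gate and library as having or lacking a read, and the counts were tested with edgeR 4.0.16 in R 4.3.3 (quasi-likelihood, an intercept per pseudobulk, library as a block because both groups come from the same mouse), for amplicons whose mean share lay between 2 and 98%, with Benjamini-Hochberg adjustment at 0.05 over all of them. The standard error is the log2 odds ratio over the root of F. Alternatives used limma 3.58.1, DESeq2 1.42.0, matching within 3 strata each of reads and tag UMIs, thinning, and other thresholds. Named amplicons were the 6 called ones with the largest log2 odds differences in each direction with the same sign in both mice (for CD34 and the other libraries, where nothing was called, the 2 of smallest p in each direction). CD27 and I-A/I-E splits were added after seeing the data. Libraries held 3385 to 10059 cells. Mice 3 and 4 had medians of 45003.5 and 61981 reads per cell. Exact Clopper-Pearson intervals at 95% cover counting error only. The edgeR tests were tested on simulated data.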

Additional observations from a re-analysis of the deposited data

Results flagged for a closer look

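AMPL388246, which was lower in gated cells, stood apart in 1 whole library. Over all cells of a library it had a read in 83.3% of cells of main mouse 1, against 78.5% in main mouse 2, 78.3% in main mouse 3 and 78.5% in main mouse 4. Main mouse 1 lay further from the nearest of the other 3 than Dixon's critical value for 4 samples allows. Chance gives this in about 1 of 20 groups taken alone. The value is given here because it passed that rule, so this rate does not hold for it. Main mouse 1 was also the most deeply read of the 4. Its median was 89971 reads per cell, against 52565, 45003.5 and 61981 in main mice 2, 3 and 4. It was the highest of the 4 at AMPL388659 as well, with 85.4% against 81.5%, 81.9% and 82.7%. At AMPL371238 it was not, with 86.8% against 87.4% in main mouse 4. The part of depth was not tested. Mouse 1 took no part in the comparisons of gated cells.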

How the results depend on the processing

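The 27 amplicons lower in gated than in other cells stayed lower under each alternative on cell calls, and 24 of them did on summed reads by DESeq2, but the number called depended on the processing. For gated against other cells, 27 were called. This count was 62 with a call of at least 5 reads, 67 without centring the tags, 85 without the 5% of cells with the most amplicons, 44 with no filter on shares, and 82 with a minimum of 50 tag UMIs. It was 12 on summed reads with TMM, 10 with no replicate block, and 0 with a minimum of 200 tag UMIs, matched cells, limma on log odds, or edgeR on summed reads with RLE scaling. The unadjusted counts were then 74, 58, 87 and 39, in that order. With the median difference set to 0 it was 10, and without cells with 20 or more CD16/32 UMIs 10. For gated against other c-Kit-high, Sca-1-low cells, 26 were called. This was 52 with a minimum of 50 tag UMIs, 17 with a narrower gate, 16 with the median set to 0 (8 higher and 8 lower), 11 with thinned reads, 9 with DESeq2, 6 with the logistic fit and 3 with RLE. It was 0 with no replicate block, matched cells, no centring, TMM, a minimum of 200 tag UMIs, without the 5% of cells with the most amplicons, and without cells with 20 or more CD16/32 UMIs, where 47, 38, 48, 51, 46, 101 and 73 had an unadjusted p under 0.05, in that order. Over CD16/32 classes the 20 calls became 13 with thinned reads, 11 with no replicate block, 10 with the median set to 0, 8 with tag UMIs as a covariate, and 0 to 7 with 1 mouse left out. In the libraries without CD16/32 the count was 0, or 39 with a call of 5 reads. The cause was not tested.

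On summed reads AMPL388186 reversed against other cells, to 0.086 by DESeq2, 0.086 by RLE and 0.058 by TMM, and against c-Kit-high, Sca-1-low cells to 0.015 by DESeq2 and 0.015 by RLE. AMPL371238 reversed there to 0.126, 0.126 and 0.092. The per-cell share difference averaged -3.87 points and was -6.34 to -1.40 with 1 mouse left out. The numbers pair the groups because both come from 1 mouse. Settings on the median, on cells with many CD16/32 UMIs and on the tag UMI covariate were chosen after the data were seen. The narrower gates left 11 and 3 gated cells against other cells. Leaving out a mouse leaves no residual degrees of freedom for the other edgeR counts, so those were not run. The number of gated cells limits their shares: with 58 cells in mouse 4, the interval of AMPL388246 ran from 46.6 to 73.0%.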

Other observations

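Mature myeloid cells of LARRY mice were set beside the 27 amplicons lower in gated cells, as a description of 1 library each with no replicate. In the library of mature myeloid cells from bone marrow and blood, 5 of the 27 amplicons (18.5%) were lower than the mean of whole main mouse 1 and 2 marrow, against 68% of all 600 amplicons. Their median difference was 7.74 percentage points, against -2.41 for all 600. In the library of mature myeloid cells from lung, 4 of the 27 (14.8%) were lower, against 51.2% of all 600, with median differences of 3.28 points for the 27 and -0.128 for all 600. The 27 amplicons at which gated cells had a read less often were thus mostly at or above marrow level in mature myeloid cells. Depth differed between these libraries. The median was 24569 reads per cell for bone marrow and blood and 14693 for lung, against 89971 and 52565 in main mice 1 and 2. The marrow values also take in cells with under 100 tag UMIs, which the gate left out. The part of either was not tested. AMPL388246 had a read in 90.3% of mature myeloid cells from bone marrow and blood, 9.37 points above the 2 marrow libraries, and AMPL388659 in 91.4%, 7.97 points above them.

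Among the cells that share the c-Kit and CD16/32 gates but are Sca-1-high, 61 in mouse 3 and 27 in mouse 4, AMPL388246 had a read in 70.5% of cells of mouse 3 and in 81.5% of mouse 4. These lay above the gated cells of the same mouse. Among c-Kit-low, Sca-1-low cells in the same CD16/32 class, 262 in mouse 3 and 125 in mouse 4, it had a read in 85.9% of cells of mouse 3 and 81.6% of mouse 4.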
